A study of Mus musculus with 6 samples.

Results

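The antiviral interferon-stimulated effector genes described here are 47 genes that type I interferon induces, many of which sense, block or degrade viruses. They were taken from a list of gene symbols, drawn up with earlier results of these data known, and all 47 were found among the 16836 genes of the table. They were measured by RNA sequencing in 6 libraries of mouse bone marrow-derived macrophages, which are matured in culture from marrow precursors. The groups were the Ube3a knockout (UBE3A KO, also written Ube3a-/- in the labels, here KO) and wild type littermates (WT), with 3 libraries each. Ube3a makes a HECT-type ligase that attaches ubiquitin to other proteins. The labels name no treatment, strain, age, sex or knockout allele. Whether the libraries of a genotype came from different mice is not in the labels either, and the p-values therefore rest on a spread that may be technical in part.

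Type I interferons bind the receptor chains IFNAR1 and IFNAR2 at the cell surface. The kinases JAK1 and TYK2 then activate STAT proteins, among them STAT2, which join IRF9 and bind response elements in the promoters of the target genes. In cultured macrophages a low, tonic interferon signal keeps many of these genes on without infection, and IRF7, itself a target, can amplify the response. The comparison asked whether Ube3a KO macrophages express these genes at another level than WT macrophages.

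Depth was 25454862 to 35517269 reads per library, and 1 read was worth 0.0277 to 0.0400 CPM, the read count scaled to a common library size. Ube3a itself (chr7:59228750-59311536, plus strand, GENCODE M21 on GRCm38) stood at 69.7, 61.2 and 77.0 CPM in KO replicates 1 to 3, against 207.1, 193.7 and 177.6 CPM in WT replicates 1 to 3. It fell to 35.9% of the WT level (log2 fold change −1.47, adjusted p = 0.00444 by limma with Benjamini-Hochberg adjustment), and a two-sided exact permutation test gave p = 0.1, the smallest that 3 against 3 allows. Macrophage markers were abundant, with a summed level of 14372 to 17015 CPM in KO and 15125 to 16297 CPM in WT over 10 genes, most of it the lysozyme gene Lyz2, while the T and NK cell list and the erythroid list had no gene in the table. Replicate 2 of each genotype stood apart from the other libraries in Xist, the RNA of the silenced X chromosome. KO replicate 2 had 28 reads and WT replicate 2 had 14, while the others had 30161 to 42232. Within a genotype, replicate 2 was therefore not a repeat of the same sample as replicates 1 and 3.

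In their promoters, many of the members share the interferon-stimulated response element. The element was searched on both strands as GAAA, any 2 bases and GAAA again, with overlapping matches counted separately, in the RefSeq promoter windows (GRCm38.p6, 250 bases before the start site to 50 after it). Of the 37 members with a window, 15 held a match, a share of 40.5%, against 3.99% of all 27025 genes with a window. That background was not limited to the 16836 genes of the table or to the genes tested. The windows of Ifit3, Ifit1, Isg15 and Rsad2 are shown up to the start of the gene because these members had the largest ratios of highest to lowest library among those with a match. Capitals mark the matches, where TTTC, 2 bases and TTTC is the element on the other strand.
Ifit3: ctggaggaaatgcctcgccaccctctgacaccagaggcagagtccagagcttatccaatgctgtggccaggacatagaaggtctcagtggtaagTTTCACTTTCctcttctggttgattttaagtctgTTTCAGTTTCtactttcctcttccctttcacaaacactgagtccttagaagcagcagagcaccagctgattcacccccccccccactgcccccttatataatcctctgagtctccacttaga
Ifit1: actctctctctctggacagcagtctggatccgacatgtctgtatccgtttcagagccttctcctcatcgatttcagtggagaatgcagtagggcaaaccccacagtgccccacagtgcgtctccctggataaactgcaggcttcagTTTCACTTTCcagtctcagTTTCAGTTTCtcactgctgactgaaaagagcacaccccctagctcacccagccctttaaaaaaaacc
Isg15: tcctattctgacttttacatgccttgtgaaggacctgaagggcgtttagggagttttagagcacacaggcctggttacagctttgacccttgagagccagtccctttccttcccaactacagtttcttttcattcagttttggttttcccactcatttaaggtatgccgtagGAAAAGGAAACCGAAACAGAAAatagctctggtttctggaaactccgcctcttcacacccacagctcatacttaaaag
Rsad2: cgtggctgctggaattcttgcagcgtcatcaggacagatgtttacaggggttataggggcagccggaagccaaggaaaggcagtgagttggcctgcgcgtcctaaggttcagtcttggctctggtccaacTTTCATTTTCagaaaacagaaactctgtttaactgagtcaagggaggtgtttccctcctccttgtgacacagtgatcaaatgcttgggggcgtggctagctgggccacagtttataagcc
The Ifit3 sequence spans chr19:34583279-34583528 on the plus strand and has matches 156 and 122 bases before the start site. The Ifit1 sequence spans chr19:34640639-34640870 on the plus strand, with matches 104 and 85 bases before the RefSeq start site. That site lies beyond the last base shown, since the sequence is cut where GENCODE M21 lets the gene begin. For Isg15, at chr4:156200819-156201068 on the minus strand, 3 overlapping matches begin 78, 72 and 66 bases before the start site. For Rsad2, at chr12:26456453-26456702 on the minus strand, the match begins 120 bases before it. A match is a run of letters and not a measured binding site.

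The level of the antiviral genes differed strongly between libraries of the same genotype, and the same libraries were high for nearly every member. KO replicate 1 and WT replicate 2 were the highest, KO replicate 3 came next, and KO replicate 2, WT replicate 1 and WT replicate 3 were the lowest. This arrangement held for 44 of the 47 members, against 5.25% of the 12118 genes tested, those with at least 1 CPM in 3 or more libraries. All 47 members passed that filter. The arrangement was read from the members' own values, so its count is a description and carries no test. The median member lay 0.51 above, 0.40 below and 0.09 above its own mean over the 6 libraries in KO replicates 1 to 3 on the log2(CPM + 1) scale. In WT replicates 1 to 3 it lay 0.39 below, 0.43 above and 0.22 below. In bulk RNA, fewer cells that express a gene and less of its RNA per cell cannot be told apart.

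**Figure D1:**
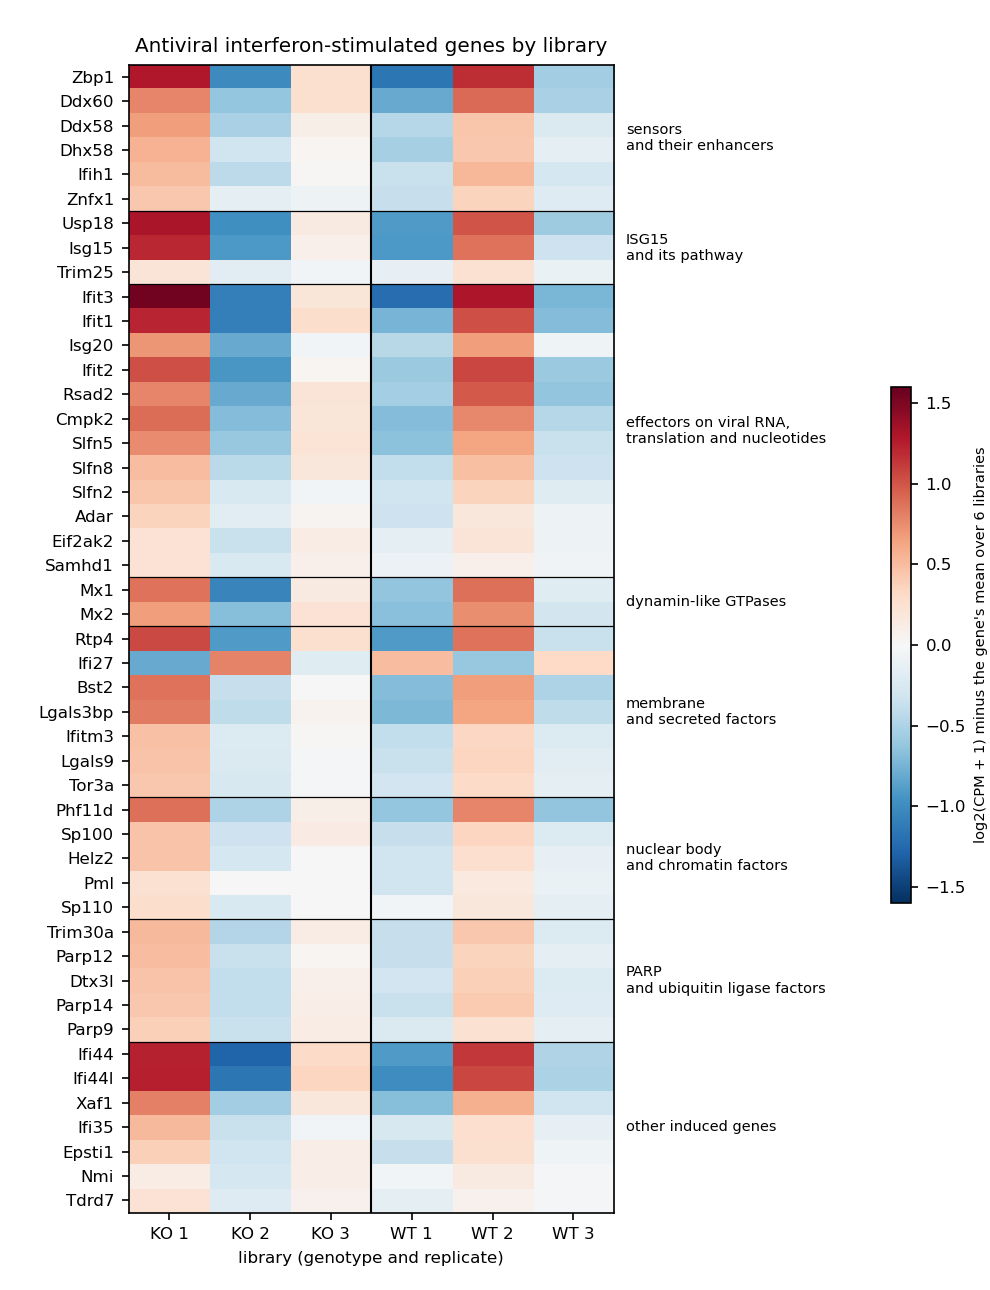
Heat map of the 47 members (rows, grouped by role) in the 3 KO and 3 WT libraries (columns). Colour is log2(CPM + 1) minus the gene's mean over the 6 libraries. KO 1 and WT 2 are red for 46 of the 47 members, and Ifi27 has the opposite colours.

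The spread was wide compared with other genes. The ratio of the highest to the lowest library in CPM ran from 1.33 for Trim25 to 8.42 for Ifit3, with a median of 1.99, against a median of 1.27 over all tested genes. A ratio of at least 4 was found in 11 members (23.4%), against 0.883% of tested genes, and one of at least 2 in 23 members (48.9%), against 7.07%. The residual SD about the genotype means had a median of 0.48 over the members and 0.12 over all tested genes on the log2(CPM + 1) scale. It placed 38 of the 47 members in the top 5% of tested genes and 21 in the top 1%. Members move together and are not independent, so these counts describe the list and carry no test.

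Among the sensors, which recognise foreign or misplaced nucleic acids, all 6 members had KO replicate 1 and WT replicate 2 as their highest libraries. Zbp1, a sensor of Z-form nucleic acids that can start necroptosis, stood at 42.9, 7.87 and 20.5 CPM in KO replicates 1 to 3, against 7.11, 39.9 and 11.2 CPM in WT replicates 1 to 3. Each genotype thus held a library near 40 CPM and a library under 8 CPM, and the genotypes overlapped. Ddx60, a helicase linked to RIG-I signalling, had 28.1, 10.1 and 19.4 CPM in KO, against 8.71, 30.8 and 10.8 CPM in WT. Ddx58, which encodes the RNA sensor RIG-I, had 187.0, 81.2 and 125.3 CPM in KO, against 84.9, 160.2 and 99.96 CPM in WT. The ratios of highest to lowest library were 6.03 for Zbp1, 3.53 for Ddx60 and 2.30 for Ddx58. The other sensors were Dhx58 (LGP2), Ifih1 (MDA5) and Znfx1, with ratios of 2.16, 1.94 and 1.75.

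In the ISG15 pathway the modifier and its protease moved together. Isg15 encodes a ubiquitin-like protein that is joined to other proteins, and it stood at 32.9, 6.78 and 14.5 CPM in KO, against 6.75, 25.8 and 10.7 CPM in WT. Usp18, the protease that removes ISG15 and also restrains the interferon receptor, stood at 43.4, 8.10 and 18.9 CPM in KO, against 8.61, 34.98 and 11.1 CPM in WT. Both had ratios near 5 (4.87 for Isg15 and 5.36 for Usp18). Trim25, a ubiquitin ligase that activates RIG-I, stood at 297.1, 228.9 and 249.6 CPM in KO, against 234.8, 305.6 and 238.1 CPM in WT. It kept the order of the libraries but had the smallest ratio of all members, at 1.33.

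The effectors that act on viral RNA, translation and nucleotides held both the steepest and some of the flattest members. Ifit3, a member of the IFIT family of RNA-binding repeat proteins, stood at 30.2, 3.98 and 11.2 CPM in KO, against 3.59, 25.2 and 5.43 CPM in WT. Ifit1, which binds viral RNA without a proper cap, stood at 46.2, 8.48 and 23.6 CPM in KO, against 11.1, 40.6 and 11.5 CPM in WT. The ratio of Ifit3 was the largest on the list, and the pair of libraries that set it, KO replicate 1 and WT replicate 1, differ in genotype. Within a genotype the steps were nearly as large, at 7.58 between KO replicates 1 and 2 and 7.03 between WT replicates 2 and 1. Isg20, an RNA exonuclease, was the least abundant member in CPM, at 4.96, 1.09 and 2.56 in KO, against 1.70, 4.81 and 2.50 in WT. Its 34 reads in KO replicate 2 carry a 95% exact Poisson interval of 23.5 to 47.5 reads, which covers counting error only. Rsad2 (viperin), the nucleotide kinase Cmpk2 and Ifit2 had ratios of 3.60, 3.12 and 4.10. The growth-restraining Slfn genes had ratios of 2.67 (Slfn5), 1.94 (Slfn8) and 1.698 (Slfn2). Adar, the RNA editing enzyme, Eif2ak2, the kinase PKR, and Samhd1, which breaks down nucleotides, had 1.62, 1.51 and 1.40.

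**Figure D2:**
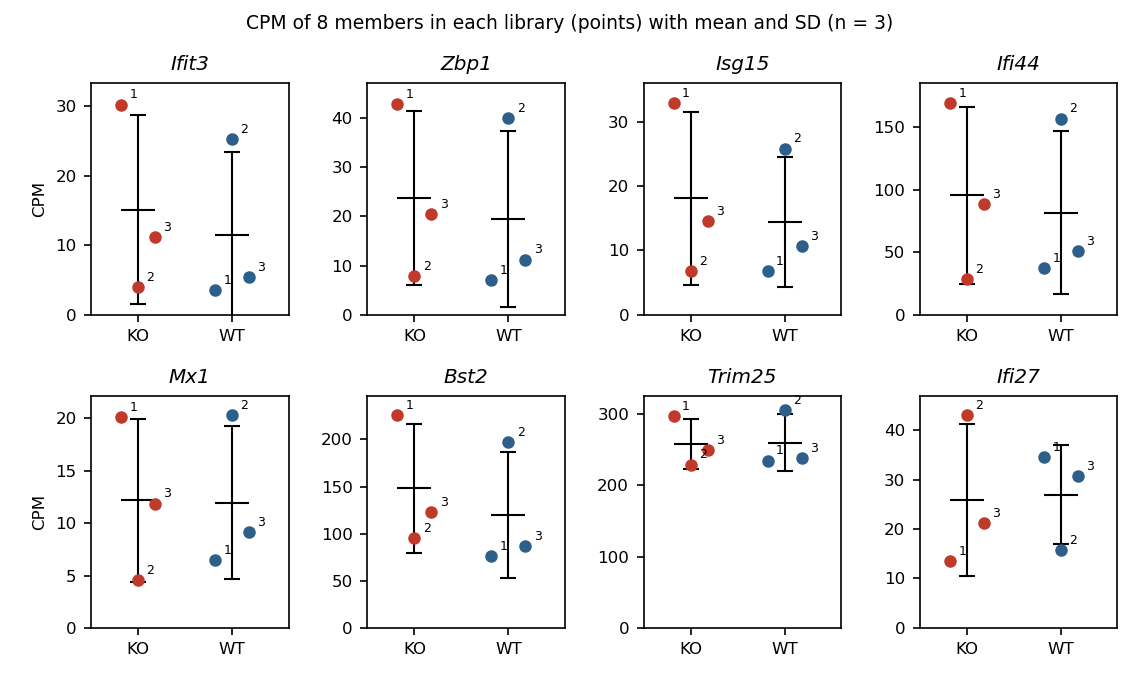
CPM of 8 members in each library, with points numbered by replicate, KO on the left and WT on the right, and the mean with its SD (n = 3; the Ifit3 bar for WT is drawn to 0). KO 1 and WT 2 are the highest points in 7 panels and the lowest in that of Ifi27.

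The dynamin-like GTPases followed the same order. Mx1 stood at 20.1, 4.59 and 11.9 CPM in KO, against 6.47, 20.3 and 9.12 CPM in WT, and Mx2 had 8.68, 2.80 and 6.17 CPM in KO, against 2.85, 9.20 and 3.99 CPM in WT. Mx1 blocks influenza viruses in the nucleus of mouse cells, although many laboratory strains carry a deletion in it. The highest and the lowest library of both genes lay in different genotypes, but the 3 values of KO and those of WT spanned nearly the same range.

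Of the membrane and secreted factors, 6 of 7 had KO replicate 1 and WT replicate 2 highest. Rtp4, a chaperone that also restrains interferon responses in mice, stood at 139.5, 34.9 and 79.5 CPM in KO, against 34.9, 121.7 and 51.5 CPM in WT. Bst2 (tetherin), which holds budding virions at the cell surface, stood at 225.8, 95.4 and 123.1 CPM in KO, against 76.0, 196.9 and 87.0 CPM in WT. Ratios were 4.001 for Rtp4, 2.97 for Bst2, 2.94 for the secreted glycoprotein Lgals3bp, 1.83 for the entry inhibitor Ifitm3, 1.76 for Lgals9 (galectin-9) and 1.68 for Tor3a.

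Ifi27 (chr12:103434211-103440239, plus strand, GENCODE M21 on GRCm38), which encodes a small membrane protein, was the exception. It stood at 13.5, 43.1 and 21.2 CPM in KO, against 34.6, 15.7 and 30.7 CPM in WT, so that KO replicate 1 and WT replicate 2 were its lowest libraries. Its order was the reverse of that of the other members, at 0.31 times between KO replicates 1 and 2 and 0.45 times between WT replicates 2 and 1. It was the only member with both of these libraries below the other 4, an arrangement found in 10.8% of tested genes. Ifi27 is named for its induction by interferon, but the table gives no measurement with added interferon.

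The nuclear and chromatin factors were flatter. Phf11d, a PHD finger gene, stood at 21.7, 7.71 and 12.1 CPM in KO, against 6.98, 20.1 and 6.96 CPM in WT, a ratio of 3.12. Sp100, a nuclear body protein, stood at 239.1, 138.3 and 190.5 CPM in KO, against 134.3, 220.9 and 150.3 CPM in WT. Helz2, a nuclear helicase, had 202.6, 121.6 and 147.5 CPM in KO, against 117.6, 178.3 and 135.0 CPM in WT. Pml, which builds the nuclear bodies, stood at 98.5, 83.5 and 83.6 CPM in KO, against 66.2, 92.8 and 77.2 CPM in WT, and Sp110 had a ratio of 1.46. All 5 kept KO replicate 1 and WT replicate 2 on top.

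The PARP and ubiquitin ligase factors had ratios close to each other, at 1.67 to 1.99, all above the median of 1.27 over all tested genes. Trim30a, which restrains signalling from Toll-like receptors in mice, stood at 230.1, 115.7 and 174.7 CPM in KO, against 124.3, 217.0 and 137.8 CPM in WT. Parp12, an ADP-ribosyltransferase, stood at 137.4, 75.8 and 99.1 CPM in KO, against 74.9, 124.5 and 87.2 CPM in WT. Dtx3l, a ubiquitin ligase that works as a complex with Parp9, had 153.5, 84.8 and 118.0 CPM in KO, against 89.9, 145.7 and 95.8 CPM in WT. Dtx3l and Parp9 share 682 bases on opposite strands, and reads there cannot be assigned, since no source used here says whether the counting used strand.

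Among the remaining induced genes, Ifi44 stood at 168.9, 28.7 and 88.4 CPM in KO, against 37.6, 156.8 and 50.6 CPM in WT. Its relative Ifi44l had 41.6, 7.10 and 21.8 CPM in KO, against 8.04, 36.8 and 11.7 CPM in WT. These paralogs had almost equal ratios (5.88 and 5.86). Xaf1, a pro-apoptotic antagonist of XIAP, had 132.3, 50.6 and 85.0 CPM in KO, against 46.3, 112.0 and 59.8 CPM in WT. Ifi35, Epsti1, Nmi and Tdrd7 had ratios of 1.86, 1.69, 1.38 and 1.35. Tdrd7 and Samhd1 were the members other than Ifi27 that broke the arrangement, with KO replicate 3 just above WT replicate 2.

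Members with a large step between libraries in KO also had a large step in WT. Per member, the log2(CPM + 1) difference of KO replicate 1 minus KO replicate 2 and that of WT replicate 2 minus WT replicate 1, which use separate libraries, had a Pearson r of 0.97 across the 47 members, and 0.96 without Ifi27. Over all 12118 tested genes it was 0.21. The medians of these differences were 0.92 in KO and 0.88 in WT over the members, against 0.0041 and 0.0094 over all tested genes. Genes are not replicates, and the pairs of libraries were picked after their values were seen, so the r is a description.

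**Figure D3:**
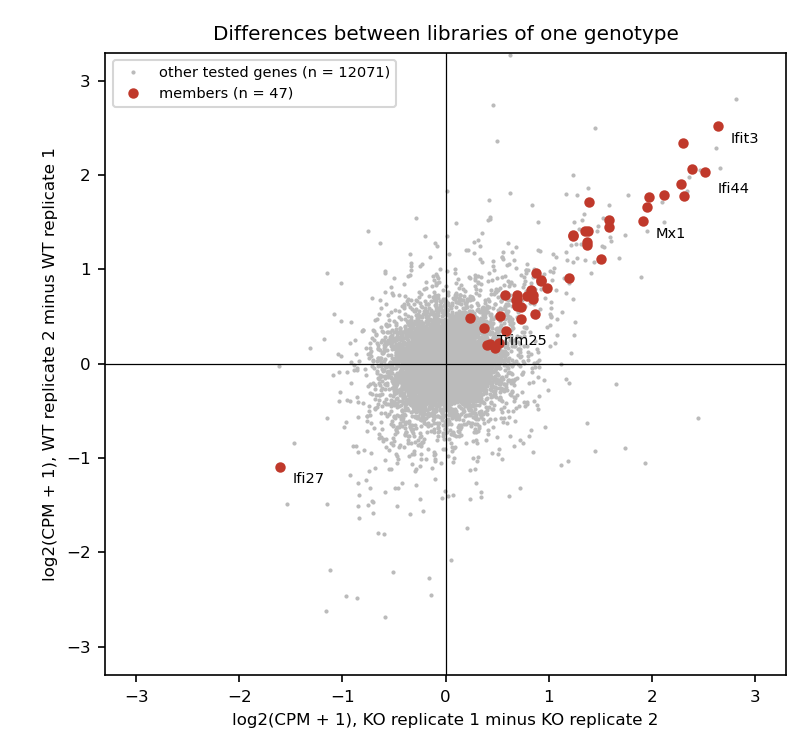
Each tested gene's log2(CPM + 1) difference between KO replicates 1 and 2 (horizontal axis) and between WT replicates 2 and 1 (vertical axis), with the 47 members in red and the others in grey (4 of these lie outside the axes). The members run along a diagonal up to Ifit3, and Ifi27 lies alone at lower left.

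Within this spread, no genotype difference was called. None of the 47 members passed an adjusted p of 0.05 (limma on log2(CPM + 1) with Benjamini-Hochberg adjustment, lowest adjusted p = 0.866), where the call rate over all tested genes was 0.0165%. No member reached an unadjusted p under 0.05 either, against 4.13% of tested genes, and limma-voom on the recovered reads gave 0 members at both thresholds, against 0.00825% and 4.20%. In 0 of the 47 members did KO and WT lie apart without overlap, against 9.95% of tested genes. The log2 fold change, KO minus WT, had a median of 0.14 and lay above 0 for 42 of the members (89.4%), while over all tested genes the median was 0.0015 and 50.4% lay above 0. The members follow the same libraries, so their signs are not independent.

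The largest and smallest log2 fold changes belonged to Ifit3 and Ifi27. Ifit3 averaged 15.1 ± 13.6 CPM in KO and 11.4 ± 12.0 CPM in WT (SD, n = 3 each), with a log2 fold change of 0.43 and a 95% interval of −1.36 to 2.22. Ifi27 averaged 25.9 ± 15.4 CPM in KO and 27.0 ± 9.97 CPM in WT, with −0.14 (−1.10 to 0.82). The members with the smallest unadjusted p-values were Pml, Adar and Bst2. Pml averaged 88.5 ± 8.61 CPM in KO, against 78.7 ± 13.4 CPM in WT, with a log2 fold change of 0.18 (−0.11 to 0.46). Adar stood at 181.6, 125.3 and 146.2 CPM in KO, against 112.1, 160.2 and 133.4 CPM in WT, with 0.16 (−0.21 to 0.53). With 1 library omitted, these values ran from 0.06 to 0.30 for Pml and from 0.02 to 0.29 for Adar. For Bst2 the log2 fold change was 0.34 (−0.59 to 1.27), and in all 3 genes the values of KO and WT overlapped. Half-widths of the 95% intervals ran from 0.26 to 1.79, and for 11 members the whole interval was inside a 1.5-fold change either way, against 90.4% of all tested genes. For the other members a genotype difference of 1.5-fold was not excluded by these libraries.

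**Figure D4:**
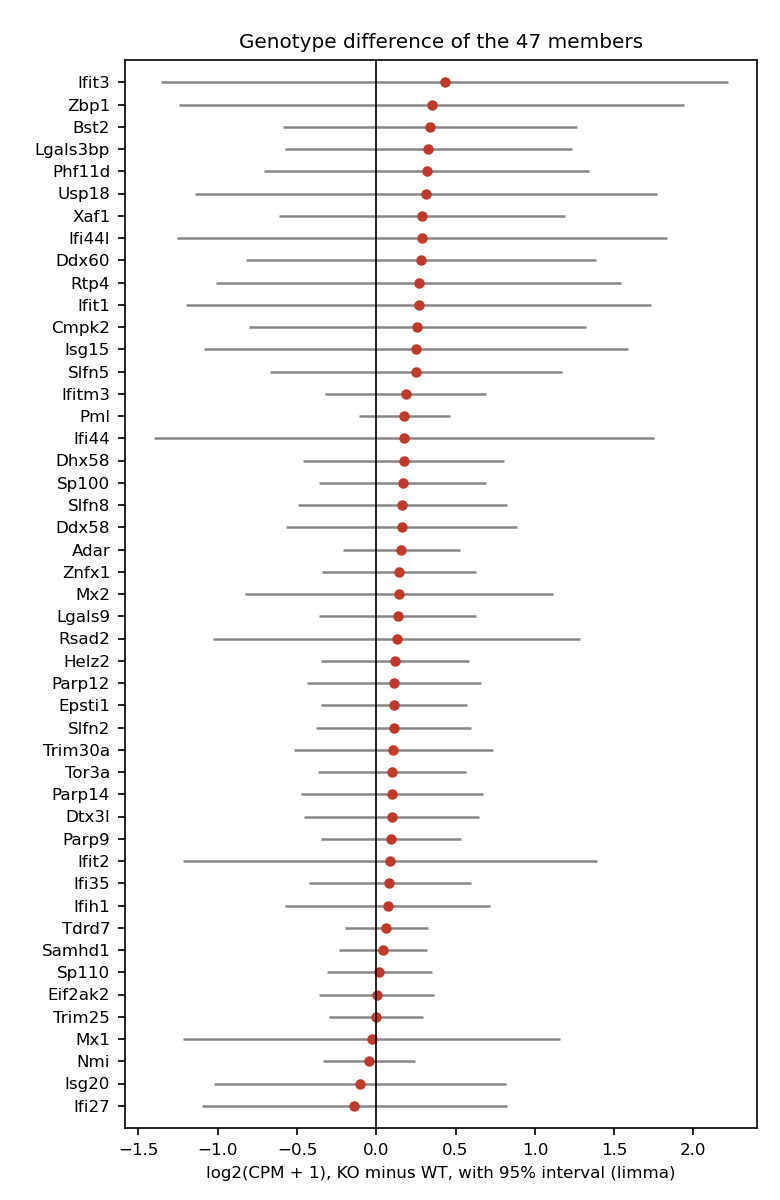
Difference in log2(CPM + 1), KO minus WT, for each of the 47 members, with its 95% interval from limma. All 47 intervals cross 0, and those of Ifit3, Zbp1 and Ifi44 are the widest.

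The direction of the genotype difference depended on single libraries. The median log2 fold change over the members was 0.14 with all libraries, but −0.11 once KO replicate 1 was omitted, with 3 of 47 positive, and −0.03 once WT replicate 1 was omitted, with 13 of 47 positive. Omitting KO replicate 2 gave 0.37, omitting WT replicate 2 gave 0.38, and omitting WT replicate 3 gave 0.07. When replicate 2 of both genotypes, the libraries with few Xist reads, were omitted together, it was 0.58 with 46 of 47 positive. That omission took out the KO library where the median member was lowest (−0.40 from its own mean over the 6 libraries). It also took out the WT library where the median member was highest (0.43), so a higher median was built in. In that fit of 2 KO against 2 WT libraries, 44 members reached an unadjusted p under 0.05 (limma), where 11.4% of all tested genes did. Members move together, so this count carries no test of genotype. None reached an adjusted p of 0.05 (limma with Benjamini-Hochberg adjustment, lowest adjusted p = 0.0513), where 0.198% of all tested genes did, more than with all 6 libraries. Each replicate 2 library was extreme on this list in its own genotype, KO replicate 2 among the lowest and WT replicate 2 among the highest. Only replicate 2 of each genotype had few Xist reads, and the part of this feature in the result was not tested.

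Upstream of the members, 9 of the 25 tested signalling genes had KO replicate 1 and WT replicate 2 as their highest libraries, against 12.8% of all tested genes, and the median ratio of highest to lowest library was 1.26. Of 29 signalling genes listed, 26 were in the table and 25 were tested, with 0 higher and 0 lower in KO at an adjusted p of 0.05 (limma), 1 at an unadjusted p under 0.05 (against 4.13% of all tested genes) and 0 called by limma-voom. Irf7, the interferon-induced amplifier, had 352.4, 31.3 and 99.9 CPM in KO, against 28.9, 239.2 and 47.8 CPM in WT. Its ratio of 12.2 was larger than that of any member, and its log2 fold change was 0.57 (95% interval −1.64 to 2.78). Stat2 stood at 181.8, 96.1 and 142.6 CPM in KO, against 87.2, 162.9 and 104.1 CPM in WT. Irf9 had 99.9, 76.1 and 81.9 CPM in KO, against 71.4, 97.4 and 75.6 CPM in WT. These partners in the activated complex had ratios of 2.09 (Stat2) and 1.40 (Irf9), both with KO replicate 1 and WT replicate 2 on top. The receptor gene Ifnar1 stood at 301.8, 333.2 and 314.8 CPM in KO, against 326.4, 322.5 and 325.2 CPM in WT, and had its lowest value in KO replicate 1. Irf1 had WT replicate 2 and KO replicate 1 highest with a ratio of 1.28, Irf8 was highest in KO replicate 2, and Socs3, a feedback inhibitor of cytokine signalling with a ratio of 2.35, was lowest in WT replicate 2 and KO replicate 1. The interferon genes Ifnb1, Ifna4 and Ifng have no row in the table, which holds genes with at least 10 reads over the 6 libraries, and were not analysed here. The gene with the unadjusted p under 0.05 was Sting1, the adaptor of cytosolic DNA sensing, with 72.8, 80.2 and 78.8 CPM in KO, against 57.7, 69.6 and 68.7 CPM in WT (limma adjusted p = 0.866), and it was named after its values were seen.

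**Figure D5:**
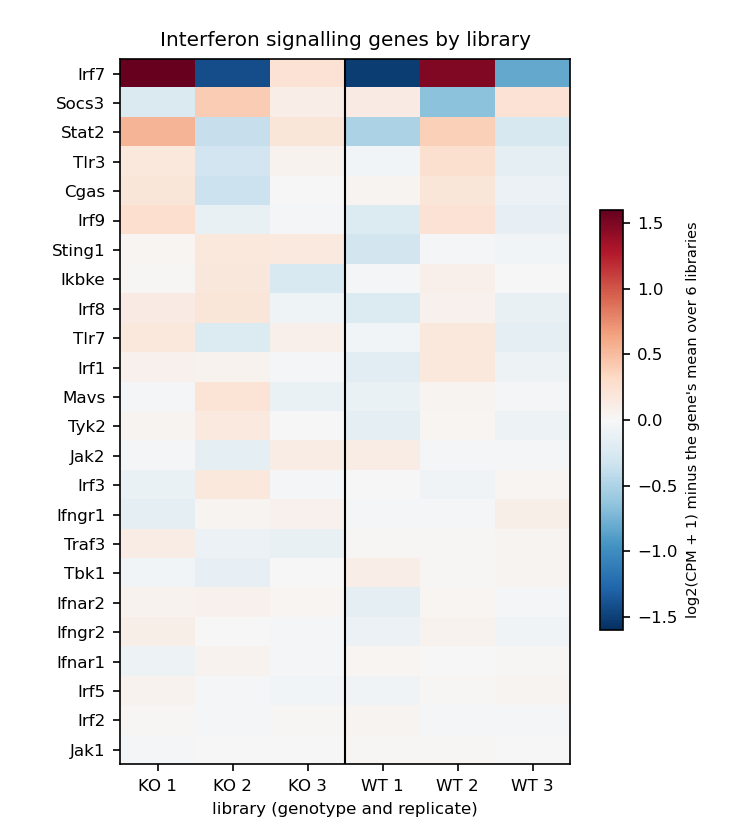
Heat map of the tested interferon signalling genes reported here (rows, by the ratio of highest to lowest library) in the 3 KO and 3 WT libraries (columns), coloured as log2(CPM + 1) minus the gene's mean over the 6 libraries, with colours capped at 1.6, which Irf7 in KO 1 exceeds. Irf7 and Stat2 are high in KO 1 and WT 2, while Jak1, Irf2 and Ifnar1 are nearly white throughout.

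The neutrophil marker sum and the read depth also set KO replicate 1 and WT replicate 2 apart, while the other marker sums given here did not. Among 10 macrophage markers, 2 had KO replicate 1 and WT replicate 2 highest, against 12.8% of all tested genes. They were the LPS co-receptor gene Cd14 (ratio 1.34) and Adgre1, which encodes F4/80 (ratio 1.64). Mrc1, the mannose receptor gene, spanned 3.24-fold and was highest in KO replicate 2. The neutrophil marker list, with 8 of its 10 genes in the table, summed to 8.16, 18.3 and 21.3 CPM in KO replicates 1 to 3, against 32.5, 10.2 and 28.2 CPM in WT replicates 1 to 3, and was lowest in KO replicate 1 and WT replicate 2. Of the neutrophil genes, Ly6g and Retnlg have no row in the table and 3 others had at least 1 library at 0 reads. KO replicate 1 and WT replicate 2 were also the libraries with the fewest reads, at 25454862 and 28651459. Over all tested genes, the deviations of these 2 libraries from their genotype means had a correlation of 0.398, the highest of the KO and WT pairs. The part of any of these in the result was not tested. The plasmacytoid dendritic cell list summed to 88.8 to 97.2 CPM in KO and 91.8 to 99.5 CPM in WT, nearly all of it Tcf4, and its defining gene Siglech has no row in the table. Conventional dendritic cell markers summed to 0.480 to 0.578 CPM in KO and 0.142 to 0.448 CPM in WT. These sums rest on 3 of 6 listed genes, with only 0 to 12 reads per gene and library. The B cell list summed to 2.70 to 4.38 CPM in KO and 2.08 to 4.08 CPM in WT. No tested gene of any marker list was called. However, the conventional dendritic cell, T and NK cell, mast cell and basophil, and erythroid lists had 0 tested genes. The B cell and stromal lists had 1 each. Inflammatory genes driven by NF-kB summed to 271.7 to 317.4 CPM in KO and 281.1 to 314.5 CPM in WT. Of the 7 tested genes on that list, 1, the chemokine gene Ccl3, had KO replicate 1 and WT replicate 2 highest, against the same 12.8%. Ratios of highest to lowest library ran from 1.23 to 3.06 over these 7 genes.

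Members with and without the response element overlapped in how much they varied. The ratio of highest to lowest library had a median of 2.30 (1.35 to 8.42) over the 15 members with a match and of 1.80 (1.33 to 5.88) over the 22 with a window and no match. Ifi44, Ifi44l, Ifit2, Isg20, Phf11d and Cmpk2 had ratios over 3 and no match in their windows, which says only that these letters are absent there. By position, 3 members, Isg20, Ifitm3 and Trim30a, lie on chromosome 7 with Ube3a, and 44 lie on other chromosomes. In GENCODE M21 (GRCm38), 9 members overlap another gene of the table, the longest stretch being 7252 bases between Adar and Chrnb2. Reads of the Ifit, Slfn, Mx, Trim30 and Phf11 families can be shared with near-identical relatives, so the values of single members are uncertain there.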

How the data were processed

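Total RNA of 6 macrophage libraries (3 KO, 3 WT, grouped by title) was made into mRNA libraries. The submitters' processing notes name HISAT2 2.1.0, Trimmomatic 0.36, FastQC 0.11.15, HTSeq 0.11.0 and Cufflinks. The role of each tool, the genome build and the strand setting were not given in the sources used.

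The authors deposited 1 table of log2 CPM values per gene and library, with the decimal mark lost in every value of size 1 or more. It was restored from the digits. The 971 to 1032 values per library with 2 readings were settled by whole reads. From 2 to the power of the value, an offset shared by all libraries was taken off, and the rest divided by that library's CPM of 1 read. The outcome was a whole number of reads, within 1e-06, for 100% of genes. The same steps recovered 100% of simulated reads. CPM use the authors' scaled library sizes, 0.982 to 1.02 times the reads.

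The 12118 of 16836 genes that reached 1 CPM in 3 or more libraries were fitted as log2(CPM + 1) with limma 3.58.1 in R 4.3.3, with an intensity trend and genotype as the only term. P-values are two-sided and adjusted over all genes tested, and this scale understates the fold changes of low genes. A ratio of highest to lowest library is in CPM. All pairs of libraries of a genotype differed beyond sampling noise (chi-square over its degrees of freedom 9.37 to 36.5).

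The members, gene lists and tests were chosen with earlier results of these data known. In each role, up to 3 members with a mean of at least 2 CPM and the largest ratio of highest to lowest library were named. The members with the smallest ratio, the 3 smallest p-values and the extreme fold changes were added. Alternatives were other pseudocounts, no filter, plain library totals, limma-voom, omitted libraries and a replicate block. The values of 1 signalling gene are not reported here.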

Additional observations from a re-analysis of the deposited data

How the results depend on the processing

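No member and no interferon signalling gene was called in any of the 13 alternative fits, and Ube3a kept its call in all of them. The count of members with KO replicate 1 and WT replicate 2 highest was 43 on plain library totals. With other pseudocounts, no filter, plain totals or limma-voom, the median log2 fold change over the members stayed at 0.131 to 0.146, and no named member changed its direction.

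With 1 library left out, the median ran from −0.107 without KO replicate 1 to 0.377 without WT replicate 2, and 23 of 25 named members had both signs. Their values ran for Bst2 from −0.012 to 0.761, Ddx58 from −0.134 to 0.463, Ddx60 from −0.051 to 0.804, Dtx3l from −0.108 to 0.316, Helz2 from −0.079 to 0.287 and Ifi27 from −0.571 to 0.232. The corresponding ranges were for Ifi44 from −0.399 to 0.859, Ifi44l from −0.262 to 0.936, Ifit1 from −0.276 to 0.881, Ifit3 from −0.238 to 1.187, Isg15 from −0.291 to 0.770 and Isg20 from −0.477 to 0.278. In the same way they ran for Mx1 from −0.466 to 0.492, Mx2 from −0.156 to 0.548, Parp12 from −0.107 to 0.319, Phf11d from −0.046 to 0.785, Rtp4 from −0.193 to 0.792 and Sp100 from −0.020 to 0.377. The remaining ranges were for Trim25 from −0.107 to 0.120, Trim30a from −0.123 to 0.370, Usp18 from −0.259 to 0.894, Xaf1 from −0.045 to 0.647 and Zbp1 from −0.207 to 1.029. The other 2, Pml (0.06 to 0.30) and Adar (0.017 to 0.286), stayed positive. Without replicate 2 of both genotypes, Trim25 (0.203), Isg20 (0.585) and Mx1 (0.923) turned positive. For each of these genes that fit leaves out the lowest KO and the highest WT library.

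Same-numbered libraries shared a number but did not deviate together (correlations of −0.216, −0.134 and 0.14 over tested genes). Of the KO and WT pairs, KO replicate 1 with WT replicate 2 had the highest correlation, at 0.398. KO replicate 3 with WT replicate 1 had 0.306, and KO replicate 1 with WT replicate 3 had the lowest, at −0.394. With the replicate block the median was 0.142 and the lowest adjusted p of a member 0.927. Depth limits Isg20 most, at 34 reads in its lowest library.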
